A study of Homo sapiens with 9 samples.

Results

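The RGS genes, which encode regulators of G protein signalling, were read on 9 Affymetrix expression arrays of the neuroblastoma line SK-N-AS, which is human. The 9 genes are RGS2, RGS3, RGS4, RGS5, RGS10, RGS12, RGS16, RGS19 and RGS20, of 19775 genes with a probe set. They are read by 32 of the 54675 probe sets of the array. The set was chosen on a measured value of these arrays, the lower RGS4 signal at 48 h than at 24 h, so the RGS4 time course is given as a description with no test. Per the labels, cells were treated with the RE-EX1 construct, which expresses full-length NRSF, or with HZ4, which expresses a truncated NRSF, or were left untreated. Each of these 3 series has 1 array at 0, 24 and 48 h, and the 0 h arrays of both construct series are labelled as baseline controls. How the constructs were delivered, whether an empty construct was used and whether an array holds RNA of pooled cultures are not stated in the sources used here. The description of the series speaks of triplicates over several batches, but no label gives a batch or a replicate number, so a p-value reflects only how these arrays differ among themselves, which may be technical.

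RGS proteins act on heterotrimeric G proteins, which relay signals from receptors that span the cell membrane. A receptor loads the alpha subunit with GTP, and an RGS protein speeds the hydrolysis of that GTP, which shortens the signal. RGS2 acts mainly on Gq, RGS20 and RGS19 act on the Gi and Gz class, and RGS4, RGS5 and RGS16 are short proteins whose N-terminal cysteine marks them for breakdown by the N-degron pathway, so their protein levels can differ from their RNA levels.

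RGS4 and RGS5 are neighbours on chromosome 1 of GRCh38.p14, RGS4 at 163068871 to 163076802 on the plus strand and RGS5 at 163142299 to 163321735 on the minus strand. They are 65.5 kb apart, and 0 annotated genes lie wholly between them. RGS2 lies on the plus strand of the same chromosome at 192809039 to 192812275. RefSeq promoter windows of GRCh38.p14, from 250 bases before to 50 bases after an annotated start, were searched for 8 of the 9 genes, with 22 windows. RGS20 was left out of this search, so the motif results do not cover it and do not show that it lacks a window. Windows of RGS4, RGS5 and RGS2 are shown, 5′ to 3′ on the gene's strand, because the time courses of these 3 genes carry the results that follow and because RGS4 and RGS5 lie side by side. RGS4 has 4 windows, and the one shown has the most motif matches, 4, against 0, 2 and 0 in the others, so it is not the whole of the RGS4 promoter sequence. Both RGS5 windows and the 1 RGS2 window are shown. Capitals mark every match, on either strand, to the motifs searched.

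RGS4, chr1:163069111-163069410, plus strand: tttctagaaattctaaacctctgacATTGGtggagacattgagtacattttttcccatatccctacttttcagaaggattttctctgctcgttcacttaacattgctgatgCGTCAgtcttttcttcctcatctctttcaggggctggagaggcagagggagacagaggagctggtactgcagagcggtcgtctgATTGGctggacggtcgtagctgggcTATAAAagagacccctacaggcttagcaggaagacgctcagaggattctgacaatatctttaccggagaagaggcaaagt

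RGS5, chr1:163321686-163321985, minus strand: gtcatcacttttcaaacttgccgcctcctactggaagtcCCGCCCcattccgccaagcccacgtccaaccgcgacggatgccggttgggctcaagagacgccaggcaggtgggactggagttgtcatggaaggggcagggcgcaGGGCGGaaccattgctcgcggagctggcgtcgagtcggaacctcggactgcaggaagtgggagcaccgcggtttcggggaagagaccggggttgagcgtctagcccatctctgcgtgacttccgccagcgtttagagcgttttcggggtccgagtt

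RGS5, chr1:163202867-163203166, minus strand: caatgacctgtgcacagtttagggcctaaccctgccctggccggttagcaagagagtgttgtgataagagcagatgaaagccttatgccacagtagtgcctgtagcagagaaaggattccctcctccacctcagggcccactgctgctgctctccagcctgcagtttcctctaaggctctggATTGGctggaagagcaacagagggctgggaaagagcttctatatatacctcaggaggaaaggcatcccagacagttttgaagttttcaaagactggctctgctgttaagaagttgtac

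RGS2, chr1:192808789-192809088, plus strand: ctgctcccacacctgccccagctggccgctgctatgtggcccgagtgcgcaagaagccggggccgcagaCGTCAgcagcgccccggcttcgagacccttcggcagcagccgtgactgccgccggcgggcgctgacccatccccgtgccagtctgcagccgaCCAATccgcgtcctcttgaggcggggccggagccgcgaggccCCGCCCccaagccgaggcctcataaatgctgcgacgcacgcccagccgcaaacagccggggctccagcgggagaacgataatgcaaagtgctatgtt

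The motifs searched on both strands were the cAMP response element TGACGTCA, its shorter form TGACG, which the longer one contains, the AP-1 site TGANTCA, the TATA box TATAAA, the CCAAT box CCAAT, the GC box GGGCGG, and both parts of the RE1 element that NRSF binds, CAGCACC and GGACAGC. The RGS4 window shown held TATAAA from −30 to −25 relative to the start, TGACG on the reverse strand from −139 to −135, and 2 CCAAT boxes on the reverse strand. The RGS2 window held TGACG on the reverse strand from −181 to −177, a CCAAT box from −89 to −85 and a GC box on the reverse strand from −47 to −42. The first RGS5 window held 2 GC boxes and the second a CCAAT box on the reverse strand from −68 to −64. Among all 35116 windows, TATAAA was found in 11.5%, TGACG in 24.6%, CCAAT in 34.6% and GGGCGG in 45%. The full TGACGTCA, found in 1.85% of all windows, and TGANTCA, found in 7.71%, were in 0 of the 22 windows of the 8 genes searched. CAGCACC, found in 7.75% of all windows, was in a window of RGS3, RGS10 and RGS12, and GGACAGC, found in 6.03%, in a window of RGS12. These matches describe letters in these windows and are not binding sites.

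The values are linear signal intensities that the authors had scaled to 1 target per array, and the mean after trimming 2% from each end was 150.02 on every array. Differences are log2 values above a floor of 8.266, the 25th percentile, on the brightest probe set of a gene, and 13804 genes with a mean log2 signal above 4.2 were tested. Median signals of the arrays lay between 30.87 and 42.67, and the truncated 24 h array stood furthest from the others, with a median correlation of 0.909 across genes against up to 0.931. REST, the gene of NRSF, read 171, 268 and 274 at 0, 24 and 48 h in the full-length series, 162, 323 and 342 in the truncated series on its brightest probe set, while untreated cells read 177, 445 and 260.3. Its other 2 probe sets did not keep this order of the series: at 24 h 204535_s_at read 16.1 with full-length and 122 with truncated NRSF against 44.1 in untreated cells, and 204536_s_at read 24.6 and 31.0 against 24.6. On the brightest probe set REST rose over time across the 3 series, by 0.99 ± 0.215 at 24 h (SE, limma adjusted p = 0.0046). At 48 h it was 0.77 ± 0.215 above 0 h (adjusted p = 0.035). There REST did not pass for full-length over untreated (−0.28 ± 0.47, SE, limma adjusted p = 1) or truncated over untreated (0.09 ± 0.47, adjusted p = 0.99). Whether any of the 3 probe sets reads the constructs is not stated. RNA was taken from whole cultures, so fewer cells of a kind and less RNA per cell cannot be told apart.

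RGS4, which acts on Gi and Gq alpha subunits and is abundant in neurons, was highest at 24 h and lowest at 48 h in every series. On its brightest probe set, 204337_at, the signal was 766, 1485 and 451 at 0, 24 and 48 h in the full-length series. It was 1073, 2119.9 and 670.2 in the truncated series. In the untreated series it was 1213, 1781 and 914. The 3 arrays at 24 h were above all others, while the 48 h and 0 h arrays overlapped. The 48 h over 24 h difference was −1.72 in the full-length series, −1.66 in the truncated series and −0.96 in the untreated series, a mean of −1.45 ± 0.42 (SD, n = 3 series), or 36.6% of the 24 h signal. The 24 h over 0 h difference averaged 0.83 ± 0.24 and the 48 h over 0 h difference −0.62 ± 0.19 (SD, n = 3). These values include the contrast that chose RGS4.

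**Figure D1:**
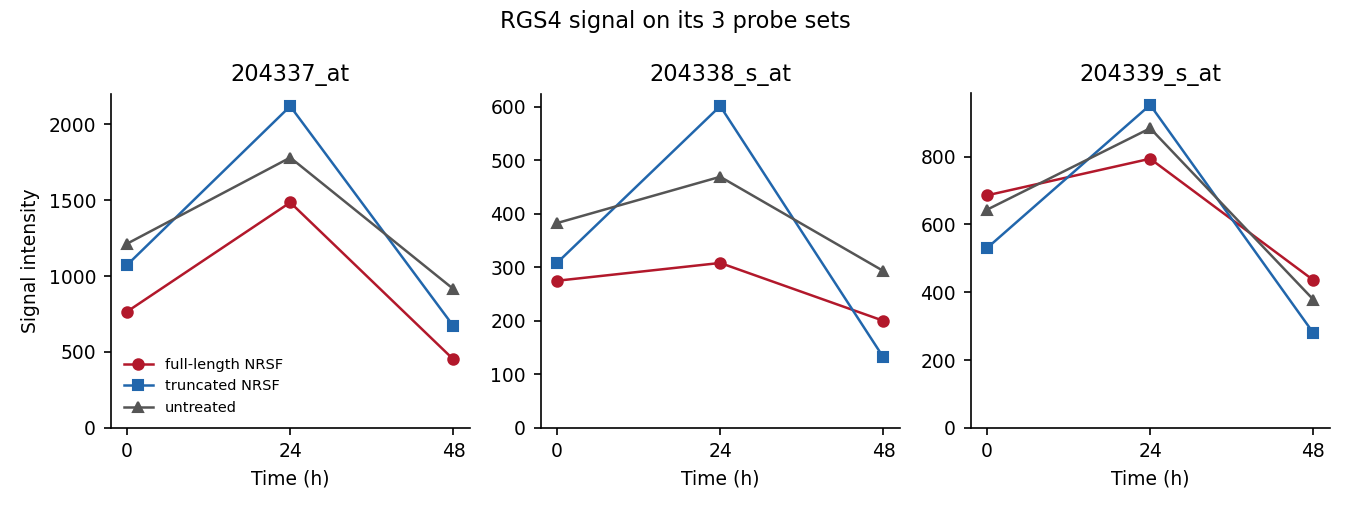
RGS4 signal intensity (linear axis from 0) against time in hours on each of its 3 probe sets, with 1 array per point and a line per series (full-length NRSF, truncated NRSF, untreated). On every probe set each series is highest at 24 h and lowest at 48 h, and the 24 h arrays of 204337_at lie between 1485 and 2119.9.

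The other RGS4 probe sets had the same order of times. On 204338_s_at the signal was 275, 308 and 199.9 at 0, 24 and 48 h in the full-length series, 308, 601 and 131 in the truncated series, while untreated cells read 382, 469 and 293. On 204339_s_at it was 685, 794 and 435 in the full-length series, 529.8, 952 and 279 in the truncated series, while untreated cells read 643, 883 and 378. All 48 h arrays were below all 24 h arrays on each of the 3 probe sets, as was the case for 10.5% of the 13804 genes on their brightest probe sets. RGS4 was chosen on this contrast, so that share is a description. The mean 48 h over 24 h difference was −1.17 ± 0.89 on 204338_s_at and −1.29 ± 0.46 on 204339_s_at (SD, n = 3 series). Over the 9 arrays, log2 signals of the 3 probe sets had pairwise Pearson correlations of 0.858, 0.777 and 0.866, with all arrays shared.

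Among the 13804 genes, 195, or 1.41%, had a lower mean 48 h over 24 h difference than RGS4. Because RGS4 was chosen on this contrast, its low place was fixed by the choice and is a description only. Signals at 48 h were at least 2-fold below those at 24 h for 8.8% of genes in the full-length series, 11.2% in the truncated series and 7.85% in the untreated series. RGS4 was past that size in both construct series and just short of it in the untreated series, and 121 genes were past it in all 3. In the other members the 48 h over 24 h difference, also given with no test, was positive in all 3 series for RGS2, RGS5 and RGS19, at means of 0.38 ± 0.28, 0.39 ± 0.17 and 0.68 ± 0.08 (SD, n = 3). For the remaining members the sign differed between series, with means of −0.21 for RGS10, −0.12 for RGS3, −0.04 for RGS16, 0.15 for RGS20 and 1.74 for RGS12. RGS4 was lower at 48 h than at 24 h on arrays where RGS2, RGS5 and RGS19 read higher.

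The genes whose log2 signal was most like that of RGS4 over the 9 arrays were EPB41L4B (Pearson r = 0.977), LIPG (0.951), AKAP12 (0.95), DKFZP586I1420 (0.945) and CAPRIN2 (0.942). These arrays share their times and their scaling, and the 5 genes are the highest of all tested, so the correlations are a description. AKAP12, a scaffold that holds protein kinase A near receptors, read 382, 448 and 231 at 0, 24 and 48 h in the full-length series, 371, 672 and 307 in the truncated series, while untreated cells read 420.3, 693 and 401. LIPG, which encodes endothelial lipase, read 169.6, 411 and 85.4 in the full-length series, 184, 369.6 and 125 in the truncated series, while untreated cells read 329, 464 and 180.1. Both had their highest signal at 24 h and their lowest at 48 h in each series. Likeness in shape was not likeness in size, since EPB41L4B moved only between 88.4 and 139.

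RGS5, which marks pericytes in blood vessels and acts on Gi and Gq, fell at 24 h. On its brightest probe set, 209071_s_at, the signal was 26166, 13548 and 17013 at 0, 24 and 48 h in the full-length series. It was 20963, 14953 and 17854 in the truncated series. In the untreated series it was 24915, 13921 and 20687. The 3 times did not overlap, with 24 h arrays lowest, 48 h arrays between and 0 h arrays highest. The 24 h over 0 h difference was −0.76 ± 0.16 (SE, limma adjusted p = 0.0043), lower in 3 of 3 series. At 48 h it was −0.37 ± 0.16 (limma adjusted p = 0.18), which did not pass. The 24 h call ended when all probe sets were averaged (−0.33, adjusted p = 0.34), without the untreated series (−0.72, adjusted p = 0.055), without the filter (adjusted p = 0.08) and without the variance trend (adjusted p = 0.064). At 48 h quantile normalization gave a call (−0.63, limma adjusted p = 0.0047).

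The 6 RGS5 probe sets fell into 4 bright and 2 dim ones, and each was tested as a feature of its own among 26491 probe sets, a choice made after the data were seen. All 4 bright probe sets fell at 24 h. The largest change was on 218353_at, where the signal was 9129, 3067 and 3626 at 0, 24 and 48 h in the full-length series, 7571, 2777 and 3709.9 in the truncated series, while untreated cells read 9801, 3843 and 4760.2. Its 24 h arrays, at 2777 to 3843, lay far below its 0 h arrays, at 7571 to 9801. Its 24 h over 0 h difference was −1.46 ± 0.14 (SE, limma adjusted p = 1.9e-06), and its 48 h over 0 h difference of −1.13 ± 0.14 passed too (adjusted p = 8.9e-05). The other bright probe sets changed by −0.79 (209070_s_at, adjusted p = 0.0021) and −0.94 (1555725_a_at, adjusted p = 0.0027) at 24 h and did not pass at 48 h (adjusted p = 0.1 and 0.14). The dim probe sets, with signals from 4.80 to 60.6 on 1558785_a_at and from 13.2 to 72.0 on 230678_at, had differences of 1.08 (adjusted p = 0.31) and 0.89 (adjusted p = 0.39) at 24 h. Which RGS5 transcripts each probe set reads was not analysed here.

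**Figure D2:**
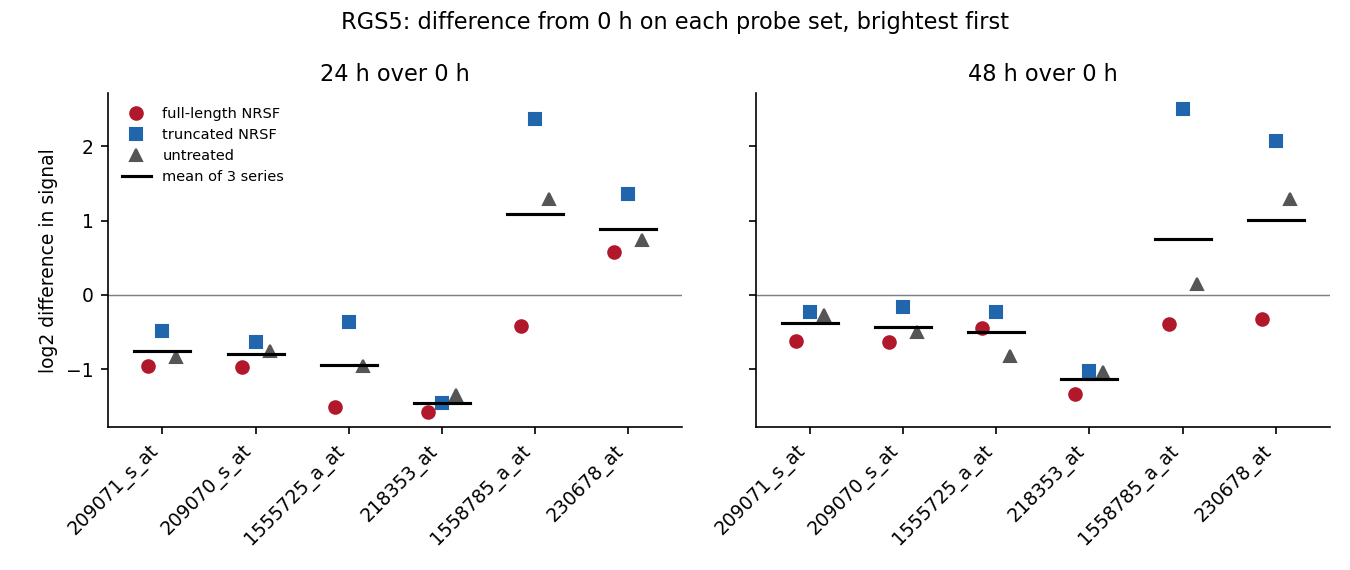
log2 difference in signal from 0 h at 24 h (left) and 48 h (right) on the 6 RGS5 probe sets, ordered from brightest to dimmest, with a point per series and a black line at the mean of 3 series. The 4 bright probe sets are below 0 in every series at both times, with 218353_at lowest at a mean of −1.46 at 24 h, while the 2 dim ones have means above 0.

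Markers of pericytes were read beside RGS5, since it is one of them. Of 7 pericyte genes 5 passed the filter, and CSPG4 and KCNJ8 did not. PDGFRB, a growth factor receptor of these cells, fell at 24 h with a difference of −0.70 (limma adjusted p = 0.032), and ANPEP fell with −0.82 at 24 h (adjusted p = 0.019) and −0.77 at 48 h (adjusted p = 0.044). The other 3 did not pass at either time and differed in sign at 24 h, with 0.51 for ABCC9 (adjusted p = 0.71), 0.52 for MCAM (adjusted p = 0.37, on a probe set open to cross-hybridization) and −1.59 for NOTCH3 (adjusted p = 0.11). The summed signal of the 7 genes was 687 to 811 at 0 h, 479 to 592 at 24 h and 487 to 577 at 48 h. PDGFRB and ANPEP thus moved with RGS5 at 24 h and ABCC9 and MCAM did not, and the part of these markers in its result was not tested.

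RGS2, which acts mainly on Gq, fell at 24 h as well. Its 1 probe set read 1607, 989.9 and 1385 at 0, 24 and 48 h in the full-length series. The signal was 2035, 1027 and 1557 in the truncated series. In the untreated series it was 2038, 1479 and 1551. All 24 h arrays and all 48 h arrays were below all 0 h arrays, and the 24 h and 48 h arrays overlapped through the untreated series. The 24 h over 0 h difference was −0.72 ± 0.14 (SE, limma adjusted p = 0.0029), lower in 3 of 3 series. The 48 h over 0 h difference was −0.33 ± 0.14 (limma adjusted p = 0.18). Of the alternatives, only the fit without a variance trend ended the 24 h call (adjusted p = 0.075). Across the 9 arrays RGS2 and RGS5 had a Pearson correlation of 0.765, against −0.342 for RGS2 with RGS4 and −0.419 for RGS5 with RGS4, all on shared arrays.

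RGS20, a regulator of Gz known from brain, rose at both later times. The signal was 21.4, 76.5 and 56.0 at 0, 24 and 48 h in the full-length series, and 31.9, 50.9 and 77.0 in the truncated series. In the untreated series it was 6.36, 77.3 and 94.8, and that 0 h value is below the floor, so it has only a bound. The arrays at 24 and 48 h did not overlap those at 0 h. The difference was 1.91 ± 0.55 at 24 h (SE, limma adjusted p = 0.025) and 2.06 ± 0.55 at 48 h (adjusted p = 0.029), higher in 3 of 3 series at both times. The mean log2 signal at 0 h, 4.16, was under the filter of 4.2, so RGS20 was tested because of its later arrays. Both calls ended without the untreated series (1.25 at 24 h, adjusted p = 0.21, and 1.33 at 48 h, adjusted p = 0.26) and without the full-length series (adjusted p = 0.14 and 0.13), and also with the mean of both probe sets, with no filter and without the variance trend. Its other probe set, 1569303_s_at, was at or below the floor on 7 of the 9 arrays.

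**Figure D3:**
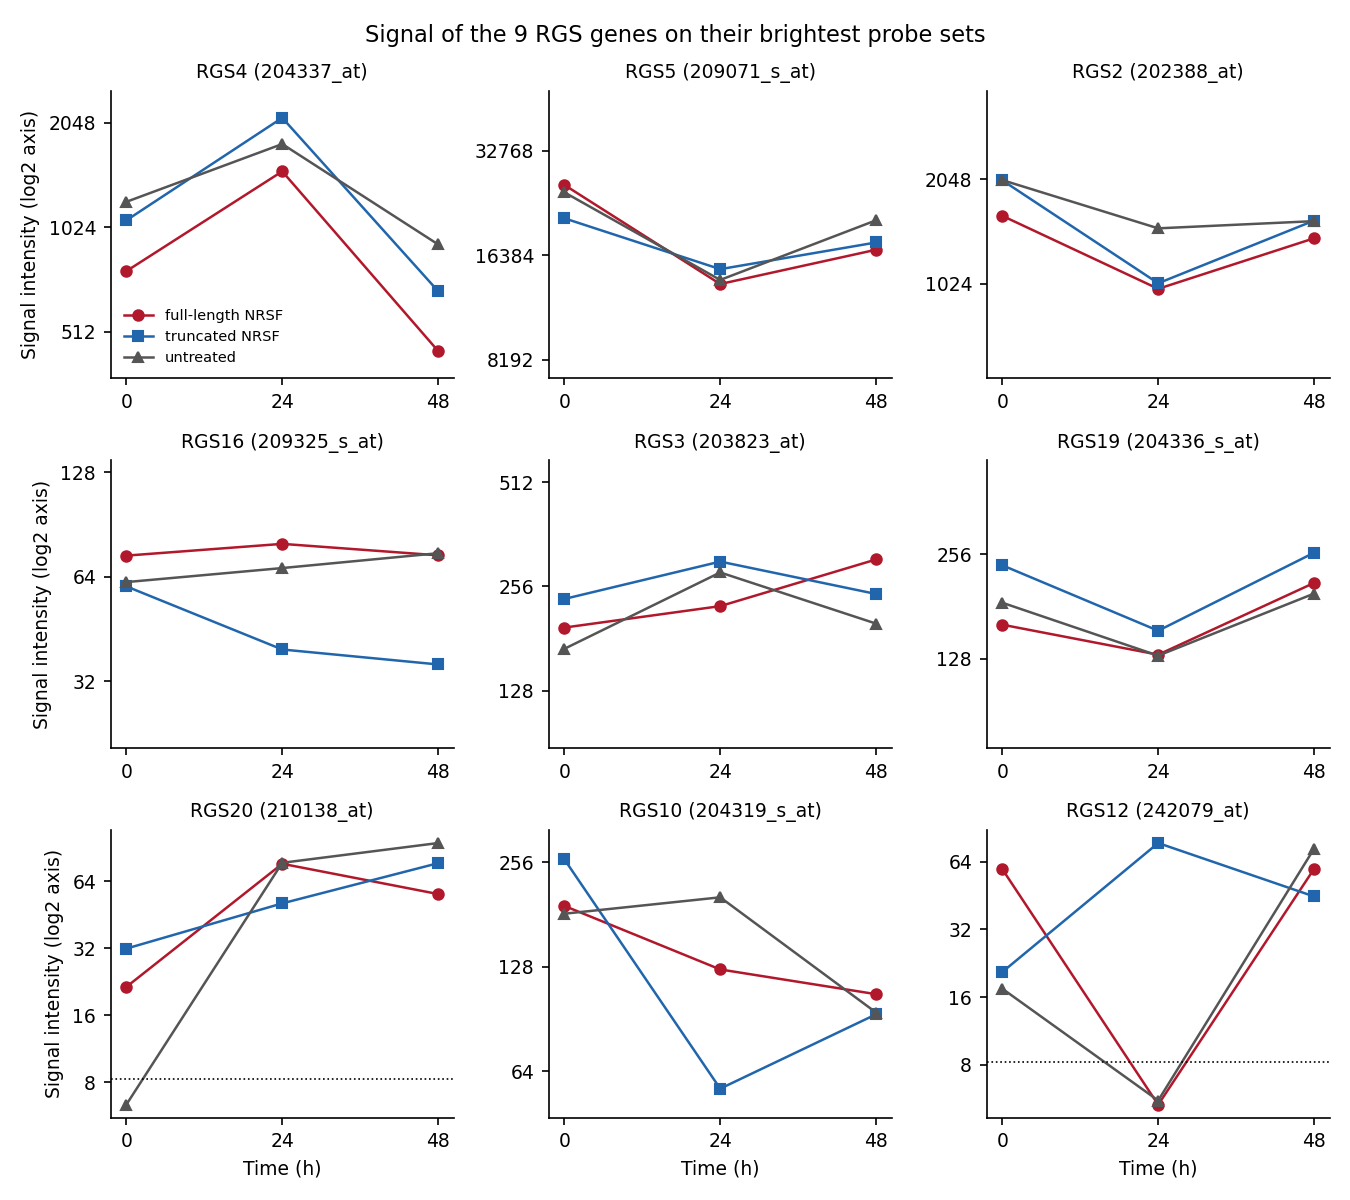
Signal intensity (log2 axis) of the 9 RGS genes on their brightest probe sets against time in hours, with 1 array per point and a line per series; dotted lines mark the floor of 8.266 where it lies in the panel. RGS4 peaks at 24 h in each series, RGS5 and RGS2 are lowest at 24 h, and RGS20 is lowest at 0 h.

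RGS19, another member of the Gi and Gz class, had the same order of times in each series, with the lowest signal at 24 h and the highest at 48 h. It read 160.3, 131 and 212 at 0, 24 and 48 h in the full-length series, 238, 154 and 259 in the truncated series, while untreated cells read 186, 131 and 197. The 24 h arrays were below all 0 h arrays and all 48 h arrays. The 24 h over 0 h difference was −0.47 ± 0.22 (SE, limma adjusted p = 0.17) and did not pass. At 48 h it was 0.20 ± 0.22 (adjusted p = 0.64).

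RGS10, a small regulator of Gi subunits known from brain and immune cells, read 192, 126 and 107 at 0, 24 and 48 h in the full-length series on 204319_s_at. It read 262, 57.0 and 93.5 in the truncated series, while untreated cells read 182, 203 and 94.5. The 48 h arrays were below all 0 h arrays, while the 24 h arrays, at 57.0 to 203, overlapped both. The difference was −0.88 ± 0.36 at 24 h (SE, limma adjusted p = 0.11) and −1.09 ± 0.36 at 48 h (adjusted p = 0.069). Without the truncated 24 h array, which held the lowest value, the 48 h difference passed (−1.09, adjusted p = 0.015), and without the untreated series the 24 h difference passed (−1.40, adjusted p = 0.03). A second probe set, 204316_at, had differences of −0.02 at 24 h (adjusted p = 0.98) and −0.35 at 48 h (adjusted p = 0.72). Its Pearson correlation with 204319_s_at over the 9 arrays was −0.364. The third, 214000_s_at, was below the filter and had mean differences of −0.93 and −0.83, with a correlation of 0.79 with 204319_s_at.

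The remaining members did not pass at either time. RGS3, which acts on Gi and Gq, read 195, 225 and 306 at 0, 24 and 48 h in the full-length series, 236, 302 and 243 in the truncated series, while untreated cells read 169, 281 and 200.0. Its times overlapped, with differences of 0.43 (limma adjusted p = 0.21) at 24 h and 0.31 (adjusted p = 0.44) at 48 h. RGS16, which like RGS4 acts on Gi and Gq, read between 35.7 and 79.6 with overlapping times, and had differences of −0.12 (adjusted p = 0.89) and −0.16 (adjusted p = 0.86). Its 3 probe sets differed in sign at 24 h, with −1.16 on 209324_s_at and 1.67 on 242212_at. RGS12, a long member with several protein-binding domains, has 10 probe sets, of which 4 passed the filter. The brightest, 242079_at, read 59.4, 5.32 and 59.6 in the full-length series, 20.7, 77.5 and 44.8 in the truncated series, while untreated cells read 17.5, 5.56 and 73.2, so 24 h arrays were both the highest and the lowest. The values of 5.32 and 5.56 are below the floor of 8.266, so they have only a bound. The differences on 242079_at were −0.67 (adjusted p = 0.64) and 1.06 (adjusted p = 0.48). With the floor at the 40th percentile the 24 h difference was 0.13. Of the 32 probe sets, 22 passed the filter and 10 did not: 6 of RGS12, 2 of RGS3 and 1 each of RGS10 and RGS20.

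Of the 8 members tested over time, 1 rose and 2 fell at 24 h, where 8.04% of the 13804 genes rose and 8.2% fell. At 48 h 1 rose and 0 fell, where 4.5% of genes rose and 3.88% fell. The riser at both times was RGS20, which passed the filter only through its later arrays and has a 0 h value below the floor, so its count supports nothing. At an unadjusted p under 0.05 there were 5 of the 8 members at 24 h and 4 at 48 h, RGS20 among them. Beside them stood 3882 and 3133 of the 13804 genes. The members' median difference was −0.57 at 24 h and 0.02 at 48 h, beside −0.03 and −0.01 over all genes.

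**Figure D4:**
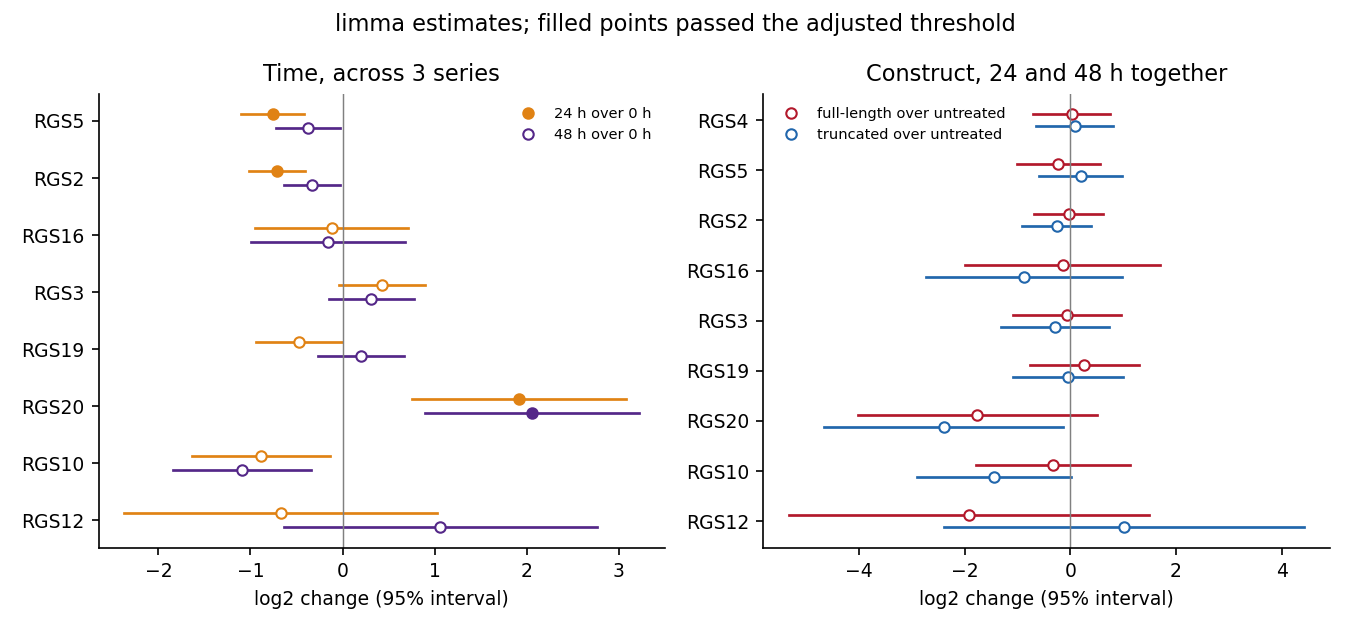
limma estimates of the log2 change with 95% intervals for 24 h and 48 h over 0 h (left, 8 members, RGS4 not tested) and for each construct over untreated across 24 and 48 h (right, 9 members); filled points passed an adjusted p of 0.05. RGS5 and RGS2 are filled below 0 at 24 h and RGS20 above 0 at both times, and every point on the right is open.

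The constructs were compared with the untreated series as the change from 0 h over 24 and 48 h together. For RGS4 the full-length over untreated change was 0.02 (95% interval −0.70 to 0.75, limma adjusted p = 1) and the truncated over untreated change was 0.08 (−0.65 to 0.81, adjusted p = 0.98). The full-length over truncated change of RGS4 was −0.06 (−0.78 to 0.67, adjusted p = 0.99). Net of the untreated series, RGS4 was 0.40 in the full-length series and 0.43 in the truncated series at 24 h, and −0.36 and −0.27 at 48 h, so its sign differed between times in both. For RGS5 the changes were −0.23 (−1.02 to 0.55) for full-length over untreated and 0.19 (−0.59 to 0.98) for truncated over untreated, and for RGS2 they were −0.03 (−0.68 to 0.62) and −0.26 (−0.91 to 0.39). These intervals still hold changes of 1.5-fold or more in at least 1 direction.

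None of the 9 members passed in any construct comparison under limma, where 0.00724% of genes passed for full-length over untreated, 0.0362% for truncated over untreated and 0.0145% for full-length over truncated. At an unadjusted p under 0.05 there were 0, 1 and 0 of the 9 members, beside 578, 1055 and 854 of the 13804 genes. The 1 member was RGS20, with a truncated over untreated change of −2.40 (95% interval −4.66 to −0.14, adjusted p = 0.61), and that value rests on the untreated 0 h array below the floor. RGS10 had −1.45 (−2.91 to 0.01, adjusted p = 0.66) for truncated over untreated.

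Other RGS family genes were taken from a list of 14, of which 13 had a probe set and 6 passed the filter. At 24 h 0 rose and 1 fell, beside 8.04% and 8.2% of all genes. The 1 that fell was RGS13, a short member known from B cells and mast cells. It read 342, 189.7 and 353 at 0, 24 and 48 h in the full-length series, 443, 141 and 428 in the truncated series, while untreated cells read 528, 308 and 556, all on 210258_at. Its 24 h arrays were below all others, with a difference of −1.09 ± 0.20 (SE, limma adjusted p = 0.0014), and at 48 h it was 0.02 ± 0.20 (adjusted p = 0.96). A second probe set, 1568752_s_at, had a mean 24 h over 0 h difference of −1.88. RGS17, which like RGS20 acts on Gz, had 0.68 ± 0.26 at 24 h (adjusted p = 0.086).

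The subunits on which RGS proteins act were read from lists of alpha, beta and gamma genes. Of 12 alpha subunits tested, 1 rose and 2 fell at 24 h, beside 8.04% and 8.2% of all genes. GNA13 rose by 0.78 ± 0.16 (SE, limma adjusted p = 0.0029), with 24 h signals of 6583, 7167 and 5117 with full-length NRSF, truncated NRSF and no construct, against 3761, 3200.4 and 3989 at 0 h. GNA11, a Gq subunit, fell by 0.74 on the log2 scale (adjusted p = 0.0099), and GNAS, the Gs subunit, by 0.52 (adjusted p = 0.017) on a probe set open to cross-hybridization. At 48 h GNAI3, a Gi subunit, rose by 0.48 (adjusted p = 0.045). Of 12 beta and gamma subunits 0 rose and 3 fell at 24 h, beside the same shares. GNG2 changed by −0.94 ± 0.16 (adjusted p = 9e-04) at 24 h and −0.64 (adjusted p = 0.021) at 48 h, and GNB1 and GNB2 by −0.45 (adjusted p = 0.032) and −0.56 (adjusted p = 0.038, on a probe set open to cross-hybridization) at 24 h. The median 24 h difference was −0.15 over the alpha subunits and −0.14 over the beta and gamma subunits.

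Among 7 tested effectors, the adenylyl cyclases and phospholipases C beta, PLCB1 was the 1 that fell at 24 h and at 48 h, and 0 rose. Over all genes 8.04% rose and 8.2% fell at 24 h, and 4.5% rose and 3.88% fell at 48 h. PLCB1, the phospholipase that Gq activates, had 24 h signals of 246, 253 and 280.1 with full-length NRSF, truncated NRSF and no construct, against 442, 643 and 637 at 0 h. The difference was −1.13 ± 0.20 at 24 h (SE, limma adjusted p = 0.00098) and −0.97 ± 0.20 at 48 h (adjusted p = 0.0061). Of 6 receptor kinases and arrestins 0 passed at either time under limma, beside the same shares. At each time 1 had an unadjusted p under 0.05, beside 3882 and 3133 of the 13804 genes. Of 5 tested modulators and anchors, 1 rose and 2 fell at 24 h, beside 8.04% and 8.2% of all genes. GPSM2 (−0.72, adjusted p = 0.0069) and GPSM1 (−0.61, adjusted p = 0.041), which bind inactive Gi subunits, fell. GPR158, a receptor that anchors RGS7, rose (1.12, adjusted p = 0.045). At 48 h GPSM1 had −0.91 (adjusted p = 0.008).

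Of 7 tested genes of the N-degron branch that breaks down RGS4, RGS5 and RGS16 proteins, 0 passed at 24 h under limma. At 24 h 0 of them had an unadjusted p under 0.05, beside 3882 of the 13804 genes. At 48 h METAP1, which removes the first methionine of new proteins, fell by 0.61 on the log2 scale (adjusted p = 0.045), and 0 rose. Over these lists of other pathway genes, 11 of 55 tested genes (20.0%) passed in either direction at 24 h and 5 of 55 (9.09%) at 48 h. Over all genes these shares were 16.2% and 8.37%, so the counts of the lists lie near the background. In the construct comparisons 0 of 55 passed under limma. For full-length over untreated, truncated over untreated and full-length over truncated, 1, 6 and 1 of the 55 had an unadjusted p under 0.05. Over all 13804 genes these counts were 578, 1055 and 854.

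Markers of the cells that the cultures could hold were read as well. Of the sympathoadrenal markers with a probe set 5 of 7 passed the filter, with TH and DBH below it, and of the mesenchymal markers 8 of 8 passed. Summed signals were 2379 to 2965 at 0 h, 2098 to 2761 at 24 h and 2428 to 2642 at 48 h for the sympathoadrenal markers. For the mesenchymal markers they were 23176 to 26417, 19317 to 22034 and 21710.0 to 25697. Of the 8 mesenchymal markers 3 rose and 2 fell at 24 h, beside 8.04% and 8.2% of all genes. SNAI2 (1.26, limma adjusted p = 2.5e-05), FOSL1 (1.56, adjusted p = 5.8e-05) and FOSL2 (0.70, adjusted p = 0.0079) rose. FN1 (−1.43, adjusted p = 1.8e-05, on a probe set open to cross-hybridization) and PRRX1 (−1.20, adjusted p = 4.5e-05) fell. At 48 h 1 rose and 1 fell, beside 4.5% and 3.88% of all genes. Of the 5 sympathoadrenal markers tested 0 passed at either time under limma, beside the same shares, and 0 had an unadjusted p under 0.05. Of the blood markers 3 of 5 passed, with sums of 148 to 159 at 0 h, 178 to 253 at 24 h and 208 to 254 at 48 h, and of the endothelial markers 1 of 5 passed the filter and was not called. PTPRC, a blood marker, rose at 48 h by 1.05 (limma adjusted p = 0.034). ITGAM (0.54, adjusted p = 0.74) and HBB (0.14, adjusted p = 0.93, on a probe set open to cross-hybridization) did not pass then. CD3E and CD14 were below the filter, with mean signals of 15.7 and 15.9 at 0 h and 10.3 and 8.33 at 48 h. RGS20 was also higher at 48 h, and the part of blood markers in that result was not tested.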

How the data were processed

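Per the labels' protocols, biotin-labelled cRNA from Trizol-extracted total RNA of SK-N-AS cells was hybridised to Affymetrix arrays. The deposited values are linear signal intensities made by the authors in the GCOS software (per the submitters' processing notes). No version is given in the sources used here. The authors' scaling was kept.

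Of 54675 probe sets, 41097 named 1 gene in the platform annotation used, 41043 of them through an Entrez ID. Probe sets naming several genes (1801), not in that annotation (11777) or marked as controls (62) were left out. Signals were floored at 8.266, the 25th percentile, and log2 was taken. The brightest probe set stood for each gene, and genes with a mean log2 signal above 4.2, the 40th percentile, were kept.

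All testing was done in limma 3.58.1 (R 4.3.3, with the data.table package at 1.17.8; lmFit and eBayes with a variance trend), two-sided, with Benjamini-Hochberg adjustment over 13804 genes and a threshold of 0.05. The time model held series and time (4 residual degrees of freedom, 16.5 in total). The exposure model had, besides, 1 term per construct for its arrays at 24 and 48 h (2 residual, 16.3 in total). It took both times as independent readings of a construct, though they are not replicate cultures. Each 0 h array was fitted exactly, so the residuals come from the 24 and 48 h arrays alone and hold no spread at 0 h. Precision is limited by the number of arrays. The code was tested on simulated data first.

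The members and the gene lists were chosen with earlier results of these data known. The genes named are all 9 members on every probe set, the 5 genes most correlated with RGS4, up to 3 called members of each list by size of change, and called genes of the RGS family. REST, RGS17, GNAI3, FOSL2, PRRX1, TH, DBH and the remaining pericyte and blood markers with a probe set were named outside this rule. Alternatives changed the floor, the normalization, the probe set rule, the filter, the variance trend, the series term and the arrays. The fit of each probe set as a feature of its own was chosen after seeing the data.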

Additional observations from a re-analysis of the deposited data

How the results depend on the processing

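Of 422 values recomputed under the alternative settings, those of single probe sets aside, 391 kept their direction and side of the threshold or moved by less than the spread, and 13 changed sign. The time fit compares arrays within each series. Without this series block, 2038 genes were called at 24 h and 967 at 48 h, and 3 and 1 members. The labels give no replicate number to pair samples by. The cause of the changes given here was not tested, except that no filter and the mean of probe sets change how many genes were tested and fits on fewer arrays use fewer samples.

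Genes called at 24 h over 0 h numbered 2242, against 1213 with the mean of all probe sets, 1264 with no filter, 539 without the variance trend and 1385 without the truncated 24 h array. Leaving out a series gave 890 to 1465. At 48 h over 0 h, 1156 genes were called, against 477, 394 and 18 with the mean of probe sets, with no filter and without the trend, and 212 to 660 with a series left out. For full-length over untreated the count was 1, against 0 with the floor at the 40th percentile, the mean of probe sets, no filter or no trend, and 8 without the truncated 24 h array. For truncated over untreated it was 5, against 1 with either other floor, quantile normalization or the 60th percentile filter, 0 with the mean of probe sets, no filter or no trend, and 36 without that array. For full-length over truncated it was 2, against 4 with quantile normalization, 0 with either other floor, the mean of probe sets, no filter, the stricter filter or no trend, and 31 without that array.

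Of the members, 3 were called at 24 h, against 1 with the mean of probe sets or no filter, 0 without the trend, and 2 to 3 with a series left out. At 48 h 1 was called, against 2 with quantile normalization or without the truncated 24 h array, 0 with the mean of probe sets, no filter or no trend, and 0 to 1 with a series left out. In the main fit RGS20 is 1 of the 3 at 24 h and the 1 at 48 h. It passed the filter only through its later arrays, so its part in these counts supports nothing. The mean 48 h over 24 h difference of RGS4 was −1.45, against −1.48 with quantile normalization and −1.30 with the mean of probe sets.

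Of the values that changed sign, those of RGS5 at 24 h on 2 dim probe sets oppose a called result, and the others belong to uncalled results. RGS12 at 24 h was 0.13 with the higher floor and −1.96 to 0.41 with a series left out. RGS16 was 0.13 at 24 h and 0.10 at 48 h with the mean of probe sets, and −0.25 to 0.12 at 24 h and −0.37 to 0.14 at 48 h with a series left out, positive without the truncated series. Full-length over untreated was 0.11 for RGS5 with quantile normalization, and 0.18 for RGS3 and −0.049 for RGS4 with the mean of probe sets. Without the truncated 24 h array, truncated over untreated was −0.88 for RGS12, 0.0095 for RGS19 and −0.081 for RGS4, and full-length over truncated was 0.10 for RGS4. With probe sets as features, 1558785_a_at of RGS5 gave 1.08 at 24 h and 0.75 at 48 h, 230678_at of RGS5 gave 0.89 and 1.01, 242212_at of RGS16 gave 1.67 and 0.94, 209638_x_at of RGS12 gave 1.72 at 24 h, and 209637_s_at of RGS12 gave −0.999 at 48 h.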
